A study of Mus musculus with 24 samples.

Results

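The 31 genes described here cover cholesterol synthesis, its transcriptional control and the handling of lipoprotein and membrane cholesterol, and all 31 were found by symbol among the 14922 genes of the table. They were listed by role and not by how they changed: 8 genes of the mevalonate stage, 11 of the squalene and sterol stage, 5 regulators of the SREBP transcription factors, and 7 genes of sterol transfer, efflux, LXR signalling and lipoprotein handling. The first 2 sets are called the 19 enzymes below. Values were log2 CPM, the share of a library's reads falling in a gene, scaled to a common total, on a log2 scale, from poly(A) RNA sequencing of female mouse neural stem cells (NSCs) grown from embryonic cortex for fewer than 10 passages. Each library was made from 100 ng of RNA. NSCs on the FVB/NJ background carried MommeD43 on both chromosomes, a missense allele of the chromatin repressor gene Smchd1 that arose in a chemical mutagenesis screen (FVB_MD43), or were Smchd1+/+ (FVB_WT). The C57BL/6J lines had Smchd1 fused to GFP on both chromosomes, either with the MommeD43 change made by CRISPR editing (B6GFP_MD43) or without it (B6GFP_WT, labelled Smchd1+/+). Strain and GFP fusion therefore changed together and cannot be told apart. The libraries came in 3 batches, of which batch 1 held both strains, batch 2 only FVB and batch 3 only B6GFP. After 2 of the 24 columns that equalled the mean of their group mates were left out, 22 libraries from 17 lines remained. FVB_WT had 6 libraries of 5 lines and B6GFP_WT had 6 of 4 lines, while FVB_MD43 and B6GFP_MD43 each had 5 of 4 lines.

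The low steps of the values gave the depth of each library relative to the deepest: it was lowest in batch 2, at 0.137 to 0.189, and reached 0.525 to 0.892 in batch 1 and 0.434 to 1 in batch 3. Counting intervals are not given, since absolute depth was not known. Summed NSC markers (Vim, Nes, Sox2, Fabp7, Pax6 and Hes5) lay between 12.14 and 12.72 log2 CPM in every library. Single NSC markers still differed between strains: 5 of the 6 passed the threshold used below in wild type (2 higher, 3 lower in B6GFP). In MommeD43 4 passed (2 higher, 2 lower), beside 41.1% (wild type) and 34.4% (MommeD43) of all genes. Nes had medians of 9.84 in FVB_WT and 10.52 in B6GFP_WT, and Hes5 of 4.88 and 2.22. Summed astrocyte markers lay between 9.95 and 10.73 in FVB libraries and between 9.12 and 10.14 in B6GFP libraries. Slc1a3 made up most of that sum, with an FVB_WT median of 10.08 against 10.26. Of 5 microglial markers only P2ry12 was in the table, at -0.78 to 1.55 log2 CPM. In such bulk samples, fewer cells of a type and less RNA per cell cannot be told apart.

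Cholesterol is built from acetyl-CoA through mevalonate to farnesyl diphosphate, which squalene synthase and the sterol enzymes then turn into cholesterol. A branch of the mevalonate stage yields geranylgeranyl diphosphate for protein prenylation. When membrane sterol is low, SCAP escorts the SREBP precursors out of the endoplasmic reticulum and their processed forms switch on most genes of the pathway, whereas INSIG proteins hold them back when sterol is high. LXR receptors, activated by oxysterols, switch on efflux genes. In the brain, cholesterol is made locally because lipoproteins do not cross from the blood, and astrocytes supply it to other cells on ApoE particles.

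Levels of different genes were compared only after division by exon length, taken as the union of all annotated exons of a gene. On that scale the mean over the 22 libraries was highest for Hmgcs1, which encodes HMG-CoA synthase, at 8.45 log2 CPM per kb. Insig1, which encodes an INSIG protein, followed at 7.25, Cyp51, the lanosterol demethylase, at 7.14, and Acat2, the acetoacetyl-CoA thiolase, at 6.84. The lowest enzymes were Ebp, a sterol isomerase, at 3.48, Ggps1, the geranylgeranyl diphosphate synthase, at 3.4, and Tm7sf2, a sterol C14 reductase, at 3.16. Without division by length these averaged 4.69, 5.63 and 5.30 log2 CPM, so their order depends on the length used. Srebf2 and Srebf1, which encode the SREBP factors, lay close together at 5.63 and 5.56. Both main efflux transporters were low, Abca1 at 0.42 and Abcg1 at -2.80. Mylip, an LXR target that marks lipoprotein receptors for degradation, stood at -1.44. Without division by length, Abcg1 and Mylip averaged 0.072 and 0.26 log2 CPM, near 1 CPM, where single reads move the value.

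The bases before the annotated RefSeq start (GRCm38.p6) are shown for the 4 enzymes called in both genotypes with the smallest p-values, because their levels are followed below, and for Hmgcs1, chosen after its values were seen because its window alone among those of the members held the SREBP motif. Each is 250 bases, 5′ to 3′ on the strand of the gene. Capitals mark matches to the SREBP motif TCACNCCAC or to the CCAAT box bound by NF-Y, in either orientation. They were Ggps1 (chr13:14063489-14063738, minus strand), Tm7sf2 (chr19:6067851-6068100, minus strand), Hsd17b7 (chr1:169969206-169969455, minus strand), Dhcr7 (chr7:143822917-143823166, plus strand) and Hmgcs1 (chr13:119690101-119690350, plus strand). The start used for Ggps1 and for Hsd17b7 is not the outer end of the annotated gene, which reaches 14063566 and 169969242. The last bases of both windows therefore lie inside the gene, with the last CCAAT match of each.
Ggps1: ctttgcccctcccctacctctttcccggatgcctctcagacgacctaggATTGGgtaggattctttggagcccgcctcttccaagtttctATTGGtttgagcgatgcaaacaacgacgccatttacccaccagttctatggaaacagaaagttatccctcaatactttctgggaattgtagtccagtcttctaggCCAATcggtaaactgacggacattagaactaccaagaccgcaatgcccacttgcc
Tm7sf2: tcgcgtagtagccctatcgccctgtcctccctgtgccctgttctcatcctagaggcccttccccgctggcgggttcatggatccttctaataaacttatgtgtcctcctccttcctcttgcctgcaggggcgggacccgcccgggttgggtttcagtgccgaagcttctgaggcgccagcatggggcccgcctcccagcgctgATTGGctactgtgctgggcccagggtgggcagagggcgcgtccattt
Hsd17b7: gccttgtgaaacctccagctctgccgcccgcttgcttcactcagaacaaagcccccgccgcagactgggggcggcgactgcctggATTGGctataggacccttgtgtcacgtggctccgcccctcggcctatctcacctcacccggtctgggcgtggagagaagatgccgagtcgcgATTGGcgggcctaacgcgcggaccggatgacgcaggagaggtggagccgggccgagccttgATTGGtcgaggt
Dhcr7: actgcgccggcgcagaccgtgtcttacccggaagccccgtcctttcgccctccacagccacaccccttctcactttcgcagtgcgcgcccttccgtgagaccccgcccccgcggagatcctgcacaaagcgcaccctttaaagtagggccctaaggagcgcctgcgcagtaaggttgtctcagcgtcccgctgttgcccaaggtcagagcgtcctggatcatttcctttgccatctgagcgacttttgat
Hmgcs1: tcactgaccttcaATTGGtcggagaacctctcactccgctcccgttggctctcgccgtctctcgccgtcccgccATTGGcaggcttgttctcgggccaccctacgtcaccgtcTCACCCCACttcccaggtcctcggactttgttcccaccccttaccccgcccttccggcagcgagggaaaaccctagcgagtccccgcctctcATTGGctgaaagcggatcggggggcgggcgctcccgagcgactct

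The Hmgcs1 window held 1 match to the SREBP motif and 3 CCAAT boxes, Ggps1 and Hsd17b7 each held 3 CCAAT boxes and Tm7sf2 held 1. Dhcr7 has 3 listed starts, and the first, shown here, held neither motif. For the counts that follow, each window ran from 250 bases before to 50 after a start, and 25 of the 31 members had at least 1 window in the table, 35 windows in all. CCAAT was found in 21 of these 35 windows (60.0%) and in 15 of 19 windows of enzymes (78.9%), against 37.4% of all 32851 windows. TCACNCCAC was found in 1 of the 35 against 1.24% of all windows, the E-box CACGTG in 7 (20.0%) against 7.15%, and the GC box GGGCGG in 25 (71.4%) against 35.7%. Both strands were searched, and none of the 4 motifs contains another. These are matches of letters and were not tested as binding sites.

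The first comparison asked whether homozygous MommeD43 changed these genes. No member passed the threshold (adjusted p under 0.05 over all 14922 genes, limma with library quality weights, batch as a term and line as a block) in either strain, in the average of both or in the difference of the effect between strains. Over all genes 0.0737% were called in FVB, 0% in B6GFP, 0.0335% in the average and 0% in the difference. At an unadjusted p under 0.05 the members numbered 0 in FVB, 0 in B6GFP, 1 in the average and 0 in the difference, against 6.86%, 2.14%, 4.62% and 3.08% of all genes. With so few calls over all genes, the absence of members among them says little about the members, and the intervals are the more direct measure. For the 19 enzymes, the 95% intervals of the fitted log2 change ran from -0.30 (Hsd17b7) to 0.22 (Sc5d) in FVB, and from -0.37 (Msmo1) to 0.22 (Sc5d) in B6GFP. Changes within those bounds remain possible.

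In FVB, the smallest p-values belonged to Tm7sf2, Abcg1 and Pmvk. Tm7sf2 differed by -0.093 on the log2 scale (SE 0.051, limma adjusted p = 0.81), Abcg1 by 0.44 (SE 0.25, limma adjusted p = 0.835) and Pmvk, the phosphomevalonate kinase, by -0.087 (SE 0.057, limma adjusted p = 0.87). Tm7sf2 lay at 5.55, 5.57, 5.26, 5.58 and 5.63 log2 CPM in the 5 FVB_MD43 libraries and at 5.57 to 5.70 (median 5.66) in FVB_WT, so 1 MommeD43 library was low and the others overlapped the controls or lay beside them. In B6GFP the smallest p-values were those of Srebf2 (-0.10, SE 0.049), Fdft1, the squalene synthase (-0.11, SE 0.054), and Stard4, a cytosolic sterol carrier (-0.16, SE 0.087), each with a limma adjusted p = 1. Averaged over strains, Abcg1 was at 0.45 (SE 0.21), Msmo1, the sterol C4 monooxygenase, at -0.12 (SE 0.061) and Tm7sf2 at -0.08 (SE 0.042), each with a limma adjusted p = 0.999. The 5 B6GFP_MD43 values of Abcg1 were -0.22, 0.37, -0.84, 2.57 and 0.01, so 1 library stood far above the others. For the difference of the effect between strains, the smallest p-values were those of Fdft1 (-0.14, SE 0.068), Srebf2 (-0.11, SE 0.061) and Stard4 (-0.16, SE 0.11), B6GFP minus FVB, with a limma adjusted p = 0.9998 for each.

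In B6GFP, 18 of the 19 enzymes had a fitted change below 0, with a median of -0.078 against 0.011 over all genes. In FVB, 13 of 19 lay below 0 with a median of -0.013. The B6GFP direction was not stable. It held within batch 1, where the enzyme median was -0.11, but within batch 3 the median was 0.129 and 21 of the 31 members had the opposite sign. The enzymes share their high and low libraries, described below, so their 18 signs are not 18 separate observations.

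**Figure D1:**
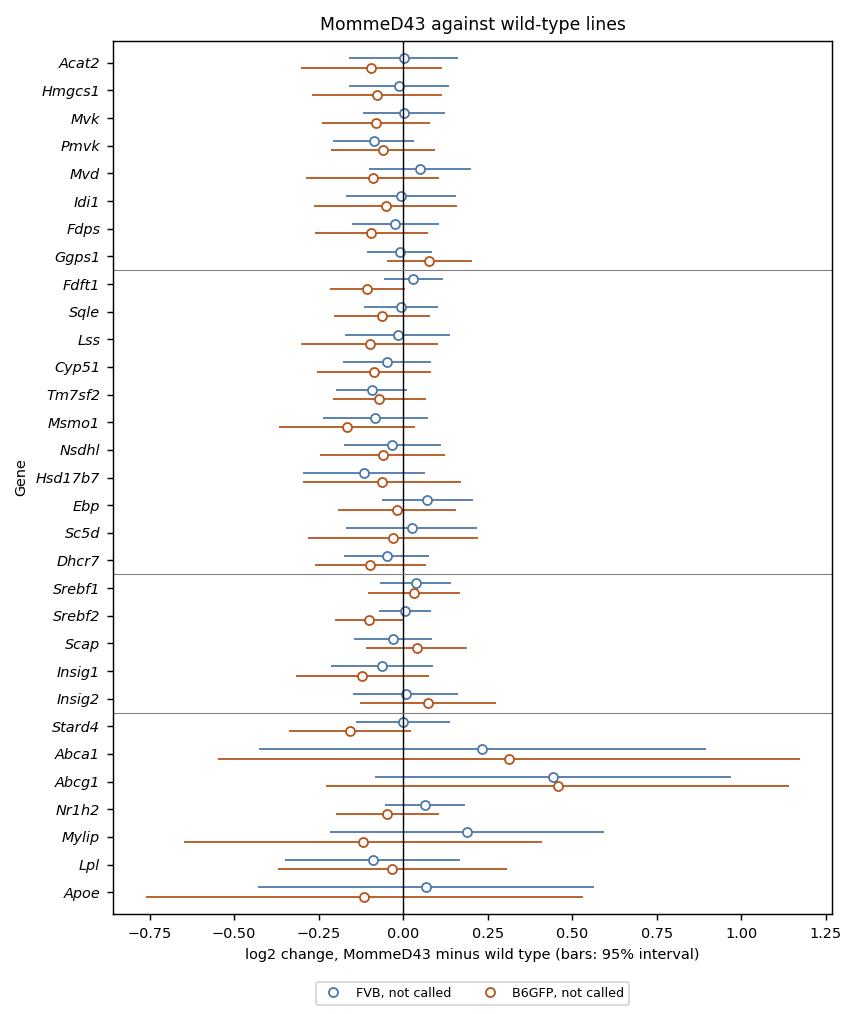
Fitted log2 change, MommeD43 minus wild type, of the 31 genes in FVB (blue) and B6GFP (brown), with 95% intervals as bars and grey lines between the 4 role groups. Every circle is open, because no gene passed the threshold, and 18 of the 19 B6GFP enzyme values lie left of 0.

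The second comparison set the B6GFP lines against the FVB lines within each genotype. Only batch 1 held both strains, so with batch as a term these differences rest almost wholly on batch 1. Batches 2 and 3 had been corrected for batch before deposit. Separation or overlap of their libraries by strain is therefore not separate evidence. Here 14 of the 31 members (45.2%) passed the threshold between the wild-type groups, 7 higher and 7 lower in B6GFP, where 41.1% of all genes did so, 17.9% higher and 23.2% lower. Between the MommeD43 groups 10 members (32.3%) passed, 4 higher and 6 lower, against 34.4% of all genes, 14.7% higher and 19.6% lower. These shares are near those of all genes, so the members as a set did not stand out. All 10 had also been called between the wild-type groups, in the same direction: Ggps1, Sqle, Sc5d and Lpl were higher in B6GFP, and Hmgcs1, Tm7sf2, Hsd17b7, Dhcr7, Srebf1 and Apoe lower. Over all genes, 4338 of the 5126 called between the MommeD43 groups were also called in wild type, 4337 of them in the same direction. Such agreement was thus general and not particular to the members. Fdps, Insig1, Stard4 (higher) and Insig2 (lower) passed between the wild-type groups only, but in no member did the strain difference itself differ between genotypes by the test of that difference. Within batch 1 alone 14 and 10 members were called, of which 12 and 8 were among those named. Without library quality weights, whose values ran from 0.1 to 4.9, only 3 members (Ggps1, Tm7sf2 and Lpl) were called in each genotype, beside 8.44% and 6.82% of all genes. Leaving out the line FVB_WT replicate 2 lowered the wild-type count to 9, and leaving out B6GFP_MD43 replicate 3 raised the MommeD43 count to 16.

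**Figure D2:**
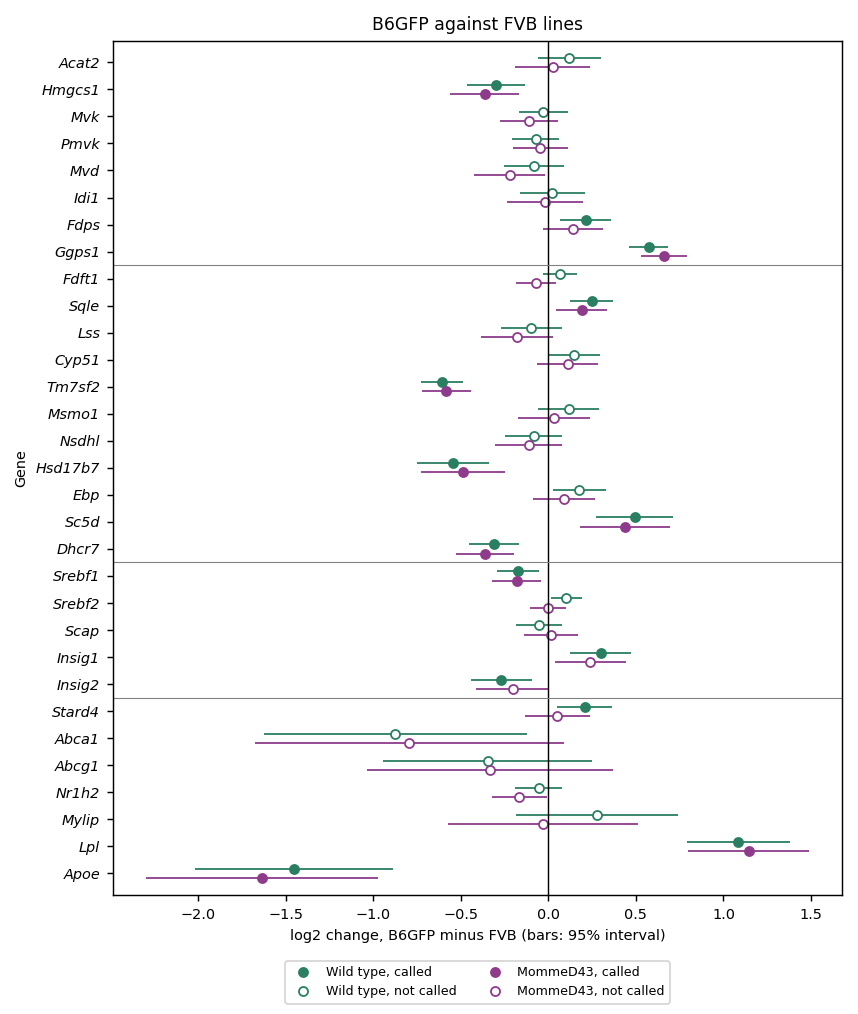
Fitted log2 change, B6GFP minus FVB, of the 31 genes between wild-type lines (green) and between MommeD43 lines (purple), with 95% intervals as bars. Filled circles mark genes that passed the threshold; Tm7sf2, Hsd17b7 and Apoe lie to the left and Ggps1, Sc5d and Lpl to the right of 0 in both genotypes.

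In the mevalonate stage, 3 of 8 genes were called between the wild-type groups and 2 between the MommeD43 groups. Ggps1 supplies geranylgeranyl groups for protein prenylation. It ran from 5.20 to 5.46 log2 CPM (median 5.31) in FVB_WT and from 5.79 to 6.08 (median 5.94) in B6GFP_WT. In the MommeD43 groups it was 5.25, 5.35, 5.29, 5.43 and 5.40 in FVB and 6.05, 5.93, 5.94, 5.91 and 5.82 in B6GFP. Every B6GFP library thus lay above every FVB library, although the levels of batches 2 and 3 depend on the batch correction before deposit. The fitted difference was 0.57 in wild type (1.49-fold, SE 0.053, limma adjusted p = 3.26e-08) and 0.66 in MommeD43 (1.58-fold, SE 0.062, limma adjusted p = 6.61e-08).

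Hmgcs1, which commits acetyl groups to the pathway and carries the SREBP motif printed above, was lower in B6GFP. Its range was 10.71 to 10.93 (median 10.84) in FVB_WT and 10.15 to 10.97 (median 10.57) in B6GFP_WT. The highest B6GFP_WT library, replicate 4, therefore exceeded all FVB_WT libraries and the groups overlapped. In FVB_MD43 the values were 10.82, 10.84, 10.80, 10.83 and 10.77, and in B6GFP_MD43 they were 10.59, 10.28, 9.89, 10.56 and 10.72, without overlap. The fitted difference was -0.30 (SE 0.08, limma adjusted p = 5.43e-03) in wild type and -0.36 (SE 0.095, limma adjusted p = 5.31e-03) in MommeD43. Fdps, the farnesyl diphosphate synthase, passed in wild type only, at 0.21 (SE 0.07, limma adjusted p = 0.0185), a call lost without any of 4 of the 17 lines (adjusted p up to 0.0893). Acat2, Mvk, Pmvk, Mvd and Idi1, the remaining genes of this stage, did not pass in either genotype, with fitted differences of -0.22 (Mvd in MommeD43) to 0.12 (Acat2 in wild type).

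In the squalene and sterol stage, the same 5 of 11 genes were called in both genotypes. Tm7sf2 ran from 5.57 to 5.70 (median 5.66) in FVB_WT and from 4.80 to 5.27 (median 4.99) in B6GFP_WT, and from 5.26 to 5.63 in FVB_MD43 against 4.89 to 5.13 in B6GFP_MD43. No B6GFP library reached an FVB library of its genotype. Its fitted difference was -0.61 (0.657-fold, SE 0.058, limma adjusted p = 5.52e-08) in wild type and -0.58 (0.668-fold, SE 0.068, limma adjusted p = 1.44e-06) in MommeD43. TM7SF2 shares its C14 reductase step with the lamin B receptor, encoded by Lbr. Lbr was higher in B6GFP, by 0.33 (SE 0.045, limma adjusted p = 5.57e-06) in wild type and 0.28 (SE 0.053, limma adjusted p = 3.53e-04) in MommeD43.

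Hsd17b7, a sterol ketoreductase, ran from 6.59 to 7.10 (median 6.75) in FVB_WT and from 5.74 to 7.49 (median 6.24) in B6GFP_WT. The overlap came from B6GFP_WT replicate 4 at 7.49, since the other 5 libraries did not exceed 6.35. The fitted difference was -0.54 (SE 0.098, limma adjusted p = 1.60e-04), with a weight of 0.101 for replicate 4. Unweighted means of the lines lay closer, at 6.78 in FVB_WT and 6.51 in B6GFP_WT. In MommeD43 the 5 FVB libraries were at 6.68, 6.70, 7.05, 6.48 and 6.54 and the 5 B6GFP libraries at 6.20, 6.25, 5.65, 5.94 and 6.32, without overlap, for a fitted difference of -0.49 (SE 0.12, limma adjusted p = 2.49e-03).

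Sc5d, the lathosterol desaturase, acts just before Dhcr7, the last reductase of one branch, and the pair moved in opposite directions. Sc5d ran from 6.28 to 6.92 (median 6.51) in FVB_WT and from 6.34 to 8.14 (median 7.04) in B6GFP_WT. Its fitted difference was 0.49 (SE 0.11, limma adjusted p = 8.54e-04) in wild type and 0.44 (SE 0.12, limma adjusted p = 9.48e-03) in MommeD43, with overlapping libraries in both. Dhcr7 ran from 7.90 to 8.14 (median 8.0) in FVB_WT and from 7.31 to 7.89 (median 7.72) in B6GFP_WT, without overlap. Its fitted difference was -0.31 (SE 0.069, limma adjusted p = 1.08e-03) in wild type and -0.36 (SE 0.081, limma adjusted p = 1.62e-03) in MommeD43.

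Sqle, the squalene epoxidase and a rate-limiting step, ran from 8.50 to 8.86 (median 8.66) in FVB_WT and from 8.62 to 9.25 (median 8.90) in B6GFP_WT, and the groups overlapped. It was higher by 0.25 (SE 0.059, limma adjusted p = 2.28e-03) in wild type. In MommeD43 it was higher by 0.19 (SE 0.07, limma adjusted p = 0.0391), and that call was lost when any of 7 of the 17 lines was left out. Fdft1, Lss, Cyp51, Msmo1, Nsdhl and Ebp did not pass in either genotype. In counts over all members, 4 had no overlap between strains in wild type (Ggps1, Tm7sf2, Dhcr7 and Lpl) and 6 in MommeD43 (Ggps1, Tm7sf2, Lpl, Hmgcs1, Hsd17b7 and Apoe). Over all genes the shares without overlap were 10.3% and 16.7%.

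**Figure D3:**
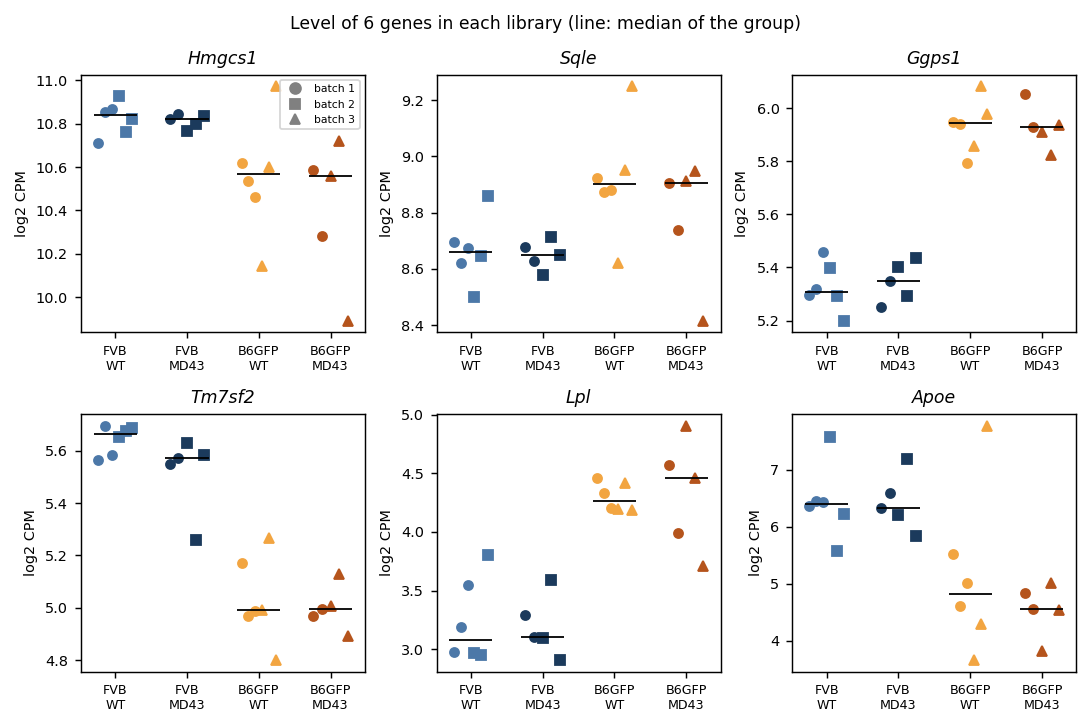
Level in log2 CPM of 6 genes in each of the 22 libraries by group, with the batch given by the symbol and the group median by a black line (each panel has its own axis). Ggps1, Tm7sf2 and Lpl separate the strains, whereas Hmgcs1, Sqle and Apoe have single B6GFP libraries of batch 3 far from their group.

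Among the regulators, Srebf1, whose SREBP-1c product favours fatty acid genes, was lower in B6GFP, at -0.17 (SE 0.057, limma adjusted p = 0.019) in wild type and -0.18 (SE 0.067, limma adjusted p = 0.0429) in MommeD43. The Srebf1 call was lost in both genotypes when each library was centred on its median (adjusted p = 0.148 and 0.21), and without any of 3 of the 17 lines in wild type or 8 of the 17 in MommeD43. Srebf2, whose product favours cholesterol genes, was at 0.10 (SE 0.042, limma adjusted p = 0.0583) in wild type and at -0.0035 (SE 0.05, limma adjusted p = 0.966) in MommeD43. Scap, the escort, did not pass in either. Insig1 was higher by 0.30 (SE 0.082, limma adjusted p = 6.46e-03) and Insig2 was lower, at -0.27 (SE 0.084, limma adjusted p = 0.0143) in wild type. The Insig2 call was lost on centring (adjusted p = 0.0548) and without any of 3 of the 17 lines. In MommeD43 they had the same signs, 0.24 and -0.20, with limma adjusted p = 0.061 and 0.117.

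The genes of lipoprotein handling had the widest differences. Lpl encodes lipoprotein lipase, which releases fatty acids from lipoproteins. It ran from 2.95 to 3.81 (median 3.08) in FVB_WT and from 4.19 to 4.46 (median 4.27) in B6GFP_WT. In MommeD43 it was 3.30, 3.11, 3.59, 2.91 and 3.09 in FVB and 4.57, 3.99, 3.71, 4.91 and 4.46 in B6GFP. No libraries overlapped, and the fitted difference was 1.09 (2.12-fold, SE 0.14, limma adjusted p = 3.91e-06) in wild type and 1.14 (2.21-fold, SE 0.17, limma adjusted p = 2.11e-05) in MommeD43.

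Apoe, the carrier of cholesterol made by astrocytes, was lower in B6GFP. It ran from 5.57 to 7.57 (median 6.39) in FVB_WT and from 3.66 to 7.77 (median 4.81) in B6GFP_WT, where replicate 4 was the highest of all 22 libraries. In MommeD43 it was 6.33, 6.6, 7.19, 5.84 and 6.20 in FVB and 4.83, 4.55, 4.53, 3.81 and 5.0 in B6GFP, without overlap. The fitted difference was -1.45 (0.365-fold, SE 0.27, limma adjusted p = 2.27e-04) in wild type and -1.63 (0.322-fold, SE 0.32, limma adjusted p = 4.82e-04) in MommeD43. The wild-type size depends on the weight of 0.101 given to B6GFP_WT replicate 4. Unweighted means of the lines lay closer, at 6.31 in FVB_WT and 5.52 in B6GFP_WT, and Apoe was not called without weights. The 5 astrocyte markers moved with Apoe: all 5 (Gfap, Aqp4, Aldh1l1, Slc1a2 and Slc1a3) were called lower in B6GFP in both genotypes, at -0.59 (Slc1a3) to -2.48 (Aqp4) in wild type. Gfap had medians of 0.26 in FVB_WT and -1.59 in B6GFP_WT and Aqp4 of 0.51 and -2.06, near 1 CPM or below, whereas Aldh1l1, Slc1a2 and Slc1a3 lay well above that level. B6GFP_WT replicate 4, highest in Apoe, was also the B6GFP library with the highest summed astrocyte markers, at 10.14. The part of such cells in the Apoe difference was not tested.

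Stard4 was higher by 0.21 (SE 0.076, limma adjusted p = 0.0328) in wild type, a call lost without any of 4 of the 17 lines (adjusted p up to 0.139), and stood at 0.051 (SE 0.089, limma adjusted p = 0.695) in MommeD43. Abca1, which loads cholesterol onto lipoproteins, was at -0.87 (SE 0.36, limma adjusted p = 0.0578) in wild type, and its 6 B6GFP_WT libraries ran from 1.5 to 6.39 (median 3.02). Abcg1, Nr1h2 (LXR beta) and Mylip did not pass in either genotype. Centring each library on its median moved the split of called members in wild type from 7 higher and 7 lower to 11 and 5, and in MommeD43 from 4 and 6 to 5 and 5, while the median of all genes moved from -0.021 to 0.044 and from -0.028 to 0.037.

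Genes next to the pathway are given beside the 41.1% (wild type) and 34.4% (MommeD43) of all genes called. Of 15 fatty acid genes, 7 passed in wild type (1 higher, 6 lower in B6GFP) and 6 in MommeD43 (all lower). Those lower in both were Scd1 (-0.36 and -0.38) and Scd2 (-0.21 and -0.30), the stearoyl-CoA desaturases, Fads1 and Fads2 (-0.21 and -0.24 in wild type), which desaturate polyunsaturated chains, Elovl5 (-0.18 in wild type) and Gpam (-0.32 in wild type). The median over the list was -0.17 in wild type and -0.18 in MommeD43, against -0.021 and -0.028 over all genes. Of 19 other genes of sterol homeostasis, 10 passed in wild type (6 higher, 4 lower) and 8 in MommeD43 (4 and 4). Among them Soat1, which esterifies cholesterol, was lower, at -0.80 (SE 0.11) and -0.88 (SE 0.13), and so was the lipoprotein receptor gene Lrp1, at -0.86 (SE 0.10) and -0.95 (SE 0.12). Of 10 genes that use the isoprenoid branch, 7 passed in wild type (1 higher, 6 lower) and 6 in MommeD43 (2 and 4). Both subunits of protein farnesyltransferase were lower, Fnta at -0.46 and -0.38 and Fntb at -0.35 and -0.42, beside the higher Ggps1, and Coq2 of ubiquinone synthesis was higher by 0.50 and 0.51. No gene of these 3 lists was called for MommeD43 in either strain.

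Single libraries differed far more in the B6GFP groups than in the FVB groups. The range of an enzyme over the libraries of a group had a median of 0.216 in FVB_WT and 0.173 in FVB_MD43, against 0.308 and 0.227 for the 8520 genes with a mean above 4 log2 CPM. In B6GFP_WT and B6GFP_MD43 it was 0.601 and 0.677, against 0.504 and 0.407. The enzymes were therefore tighter than these 8520 genes in FVB and wider in B6GFP. The 8520 genes were not matched to the enzymes by level, and the part of level in this was not tested. Cyp51 shows both: it ran from 9.18 to 9.21 in FVB_MD43 and from 8.91 to 10.06 in B6GFP_WT. The FVB libraries with the narrower range included those of batch 2, the least deep.

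The width came from libraries in which most enzymes were high or low together. In B6GFP_WT replicate 2 of batch 3, all 19 enzymes lay below the group mean, by a median of -0.39, and 15 of 19 (78.9%) had their lowest value of the group there, against 20.0% of the 8520 genes. In B6GFP_MD43 replicate 4, 18 of 19 (94.7%) were lowest, with a median of -0.41, against 36.6%. In B6GFP_MD43 replicate 3 of batch 3, 14 of 19 (73.7%) were highest, with a median of 0.25, against 22.1%. In B6GFP_WT replicate 4, the library with the lowest quality weight, 10 of 19 (52.6%) were highest, with a median of 0.22, against 35.3%, and in B6GFP_WT replicate 3 of batch 3 the count was 9 (47.4%), against 23.3%. High and low libraries occurred in both genotypes, but their line labels are linked. The 2 low libraries share the number before the point, and so do B6GFP_WT replicate 3 and B6GFP_MD43 replicate 3. What that number stands for is not given, so these are not known to be independent. B6GFP_WT replicate 1 shares the number of the low pair, and its enzyme median was 0.037 above the group mean. The high libraries in B6GFP_WT were not alike. Hsd17b7 and Sc5d lay 1.12 and 1.04 above the group mean in replicate 4 but at -0.18 and -0.05 in replicate 3.

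**Figure D4:**
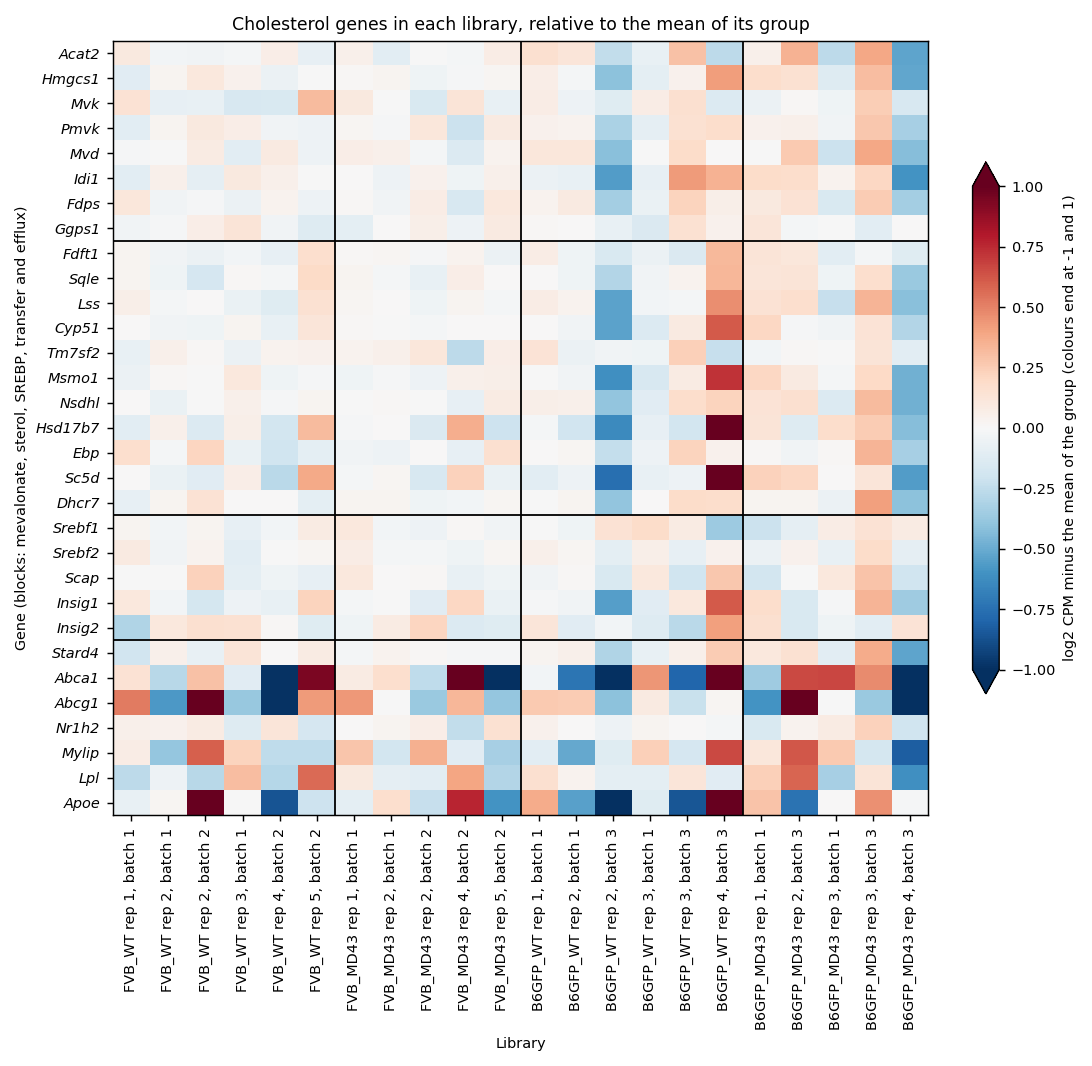
Each of the 31 genes (rows, in blocks by role) in each of the 22 libraries (columns), as log2 CPM minus the mean of the group, with red above and blue below it. FVB columns are pale in the 19 enzyme rows, whereas B6GFP_WT replicate 2 of batch 3 and B6GFP_MD43 replicate 4 are blue and B6GFP_MD43 replicate 3 of batch 3 is red in most of them.

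Members differed in how far they took part. In both low libraries Idi1, the isopentenyl diphosphate isomerase, was at -0.56 and -0.60 from its group mean, Sc5d at -0.76 and -0.56, Msmo1 at -0.61 and -0.48, and Hmgcs1 at -0.41 and -0.52. Ggps1 stood at -0.08 and 0.01 and Tm7sf2 at -0.04 and -0.10, so the 2 enzymes with the clearest strain difference hardly took part. Of the other members, Insig1 (-0.55 and -0.36), Stard4 (-0.30 and -0.52), Scap (-0.15 and -0.20), Abca1 (-1.89 and -1.44) and Abcg1 (-0.41 and -1.22) were also below their group means. Over all 31 members, 1 lay above the group mean in the first library and 3 in the second. Srebf2 was lowest of its group in both, by a small margin (-0.096 and -0.091). Srebf1 was above its group mean in both (0.15 and 0.08), and Insig2 lay on either side of it (-0.02 and 0.14). Fatty acid genes were low in the same libraries: 12 of 15 had the lowest value of the group in the first and 10 of 15 in the second, and 9 of 15 had the highest in B6GFP_MD43 replicate 3 of batch 3.

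Other measures moved with these libraries. The 2 low libraries had the lowest summed NSC markers of all B6GFP libraries, 12.18 and 12.17 log2 CPM, and the lowest oligodendrocyte lineage sums of their groups, 3.78 and 3.12. The high libraries B6GFP_WT replicate 4, B6GFP_WT replicate 3 and B6GFP_MD43 replicate 3, all of batch 3, had NSC sums of 12.72, 12.61 and 12.58. Relative depth was 0.504 and 0.434 in the low libraries and 1, 0.611 and 0.437 in the high ones, so the shallowest of batch 3 included one of each. Their part in the levels of the enzymes was not tested.

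The 5 lines sequenced in 2 batches showed the same contrast between strains. With group as a term, the fitted batch difference over all 24 columns was at most 7.0e-09 in any gene. Batch differences had therefore been removed once group was allowed for. A difference between repeats thus shows a library against the others of its batch. In FVB_WT replicate 2 the enzymes differed between repeats by a median of 0.011 (9 lower, 10 higher in the later batch) and in FVB_MD43 replicate 2 by -0.031 (12 lower, 7 higher). In B6GFP_WT replicate 2 the median was -0.42, with 18 of 19 lower in batch 3, and for Sc5d the value fell from 7.05 to 6.34. In B6GFP_WT replicate 3 it was 0.22, with 17 of 19 higher, and in B6GFP_MD43 replicate 3 it was 0.29, with 18 of 19 higher. Over the 8520 genes the medians in those 3 lines were -0.0034, -0.056 and 0.026.

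**Figure D5:**
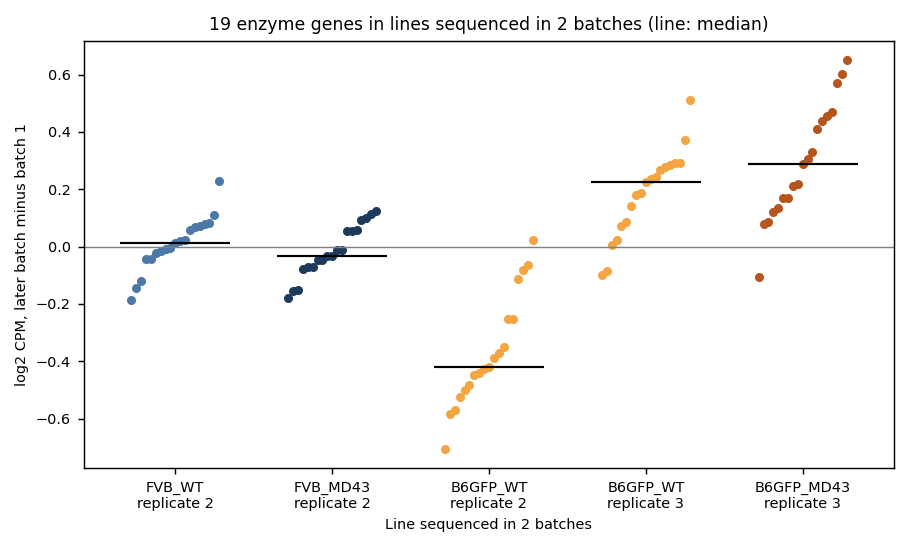
Difference in log2 CPM between the later batch and batch 1 for the 19 enzyme genes (points, sorted by value) in the 5 lines sequenced in 2 batches, with the median as a black line. The FVB lines centre on 0, whereas B6GFP_WT replicate 2 lies almost wholly below 0 and B6GFP_WT replicate 3 and B6GFP_MD43 replicate 3 almost wholly above it.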

How the data were processed

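Poly(A) RNA from female NSC lines was prepared with the TruSeq kit. The authors trimmed reads with TrimGalore 0.4.4, mapped them with HISAT2 2.0.5 to GRCm38.p6 and fitted voom models with limma 3.40.6. The deposited values are log2 CPM from which the authors had removed batch differences, with group allowed for. Their analysis corrected for batch (through repeated lines), sex and strain, together with libraries of another allele not used here. No counts were used here. Of 24 columns, 2 equalled the mean of their group mates to 8e-09 and were left out.

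limma 3.58.1 (R 4.3.3) was fitted to all 14922 genes with group and batch as terms, quality weights, a mean-variance trend and line as a block (correlation 0.0827), on 16 residual degrees of freedom, with Benjamini-Hochberg adjustment. The correction before deposit used degrees of freedom that this fit does not count, so p-values may be too small. The comparisons share groups: the average and the difference of the MommeD43 effects come from the same libraries as the effects in each strain. Depth was read from the spacing of low values, of which 98.8% to 100% lay within 0.03 of a whole step.

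Lines are taken as the labels give them, and whether each came from its own embryo is not given in the sources used here. The members and lists were chosen with earlier results of these data known. Named genes are the members past the threshold (for each strain comparison up to 10, by p, with full statistics) or, where none passed, the 3 with the smallest p. Alternatives were no weights, no batch term, other blocks, centring, a pseudocount of 1, a filter of 1 CPM in at least 4 libraries, single batches, all 24 columns and each line left out. The fit was tested on simulated data. Exon lengths came from GENCODE and windows from RefSeq.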

Additional observations from a re-analysis of the deposited data

Results flagged for a closer look

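Each gene's line means in a group were searched for a line far from the others, in 124 combinations of gene and group, and chance marks about 1 in 20 of these. It marked 9. In B6GFP_MD43 replicate 4, 6 genes were low: Hmgcs1 at 9.892 log2 CPM (the other lines 10.5 to 10.59), Pmvk at 5.968 (6.343 to 6.414), Idi1 at 7.467 (8.191 to 8.248), Sqle at 8.415 (8.844 to 8.914), Nsdhl at 6.746 (7.321 to 7.393) and Stard4 at 6.154 (6.787 to 6.831). These 6 share 1 line and are not separate events. Tm7sf2 was low at 5.258 (5.55 to 5.6) and Sc5d high at 6.774 (6.475 to 6.526) in FVB_MD43 replicate 4. Scap was high at 7.486 (7.149 to 7.184) in B6GFP_WT replicate 4.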

How the results depend on the processing

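Of the alternative counts of called members, 161 stayed within 1.5 times the value reported, 6 rose above it and 3 fell below it. Most of the 161 set 0 beside 0 for MommeD43, where few genes of the whole table were called in most settings, so they could hardly change. Among fits of single named members, 857 kept their sign and call, 37 lost the call, 5 gained it and 3 changed sign. Without quality weights 3 members were called between strains in each genotype, instead of 14 and 10. With all 24 columns, including the 2 that carry no measurement of their own, 5 members were called for MommeD43 in B6GFP, 4 in the average of strains and 29 between the MommeD43 groups, where 93.8% of all genes passed. Leaving out 1 line at a time gave 0 to 1 called members for MommeD43 in FVB (1, Abcg1, without FVB_MD43 replicate 2) and 0 to 1 in B6GFP (1, Fdft1, without B6GFP_MD43 replicate 1). It gave 9 to 18 between strains in wild type (9 without FVB_WT replicate 2) and 8 to 16 in MommeD43 (16 without B6GFP_MD43 replicate 3). The sign turned for Abcg1 in FVB within batch 2 (-0.481) and for Srebf2 (0.151) and Stard4 (0.123) in B6GFP within batch 3, none of them called. The causes were not tested. Replicate numbers did not pair the samples across genotypes (correlations of deviations -0.484 to 0.138). With a replicate block, 0 members were called for MommeD43 in FVB and 0 in B6GFP, and 13 and 8 between strains. Batch 2, at a relative depth of 0.137 to 0.189, limits low genes such as Abcg1 and Mylip most.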
